A study of Mus musculus with 34 samples.

Results

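The Tribbles pseudokinases are the 3 mouse genes *Trib1*, *Trib2* and *Trib3*, and all 3 were found by symbol among the 54532 genes of the bulk RNA-seq count table of the dorsal hippocampus. The table held 8 libraries from adult C57BL/6J male mice, 2 to 3 months of age, with 1 library per mouse. The 4 control mice (HC) stayed in the homecage, and the 4 trained mice (SOR) were euthanized 1 h after training in the spatial object recognition task, in which mice explore objects placed in an arena. The labels give no transgene, drug or virus for any of the 8 mice. The 26 other samples of the series, spatial slices and single-nucleus libraries, were not analysed here. Of the 3 genes, all passed the filter on low counts and were among the 22018 genes tested.

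Tribbles proteins fold like kinases but have lost most or all catalytic activity, and they act as adaptors. Their pseudokinase domain holds a substrate and their C-terminal tail recruits a ubiquitin ligase such as COP1, so that the substrate is degraded. Known substrates include the transcription factor C/EBPα for TRIB1 and TRIB2, and the family also binds MAP2K (MEK) kinases and AKT. TRIB1 is best known in hepatic lipid metabolism and in myeloid cells, TRIB2 as a repressor of FoxO factors and an oncogene of leukemia and melanoma, and TRIB3 as a target of ATF4 in the integrated stress response that binds AKT.

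*Trib1* (ENSMUSG00000032501) lies at chr15:59648350-59657099 on the plus strand of GRCm38, *Trib2* (ENSMUSG00000020601) at chr12:15791727-15816922 on the minus strand, and *Trib3* (ENSMUSG00000032715) at chr2:152337422-152344032 on the minus strand. The exons of their 2, 4 and 3 annotated transcripts cover 6.25, 4.33 and 2.12 kb. No annotated gene overlaps *Trib1* or *Trib3*. The microRNA gene *Mir6387* lies inside *Trib2* and had 0 counts in all 8 libraries. The noncoding *Gm5432* is transcribed away from *Trib2* and starts 81 bases from it, and its estimated counts of 0 to 8.91 per library were too low for the test.

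RefSeq promoter windows, from 250 bases before to 50 bases after a gene's start in GRCm38.p6, were matched for 2 of the 3 genes, *Trib2* and *Trib3*. The part of each window upstream of the gene's annotated starts is printed because *Trib3* is the family member with a known stress-response promoter, with *Trib2* for comparison. Capitals mark TGACG on either strand, which is the core of the cAMP response element read by CREB and ATF factors. The *Trib3* stretch is chr2:152344061-152344310 and the *Trib2* stretch chr12:15816963-15817035, both on the minus strand and written 5′ to 3′.
Trib3: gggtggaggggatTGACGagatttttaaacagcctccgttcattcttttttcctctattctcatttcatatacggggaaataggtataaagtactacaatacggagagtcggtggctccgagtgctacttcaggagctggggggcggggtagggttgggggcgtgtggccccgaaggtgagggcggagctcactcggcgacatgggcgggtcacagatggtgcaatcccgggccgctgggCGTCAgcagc
Trib2: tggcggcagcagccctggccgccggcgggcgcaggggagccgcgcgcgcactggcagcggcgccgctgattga
The first bases of the *Trib2* stretch lie inside the annotated *Gm5432* on the opposite strand. The GC content of the full windows was 58.3% for *Trib3* and 71.0% for *Trib2*, and that of the printed stretches 57.2% over 250 bases and 80.8% over 73 bases. TGACG stood at 2 places in the *Trib3* window, at chr2:152344293-152344297 and, on the opposite strand, at chr2:152344066-152344070, and at none in the *Trib2* window. At least 1 TGACG was present in 20.8% of the 32851 mouse promoter windows of 300 bases, which includes every window with the full element TGACGTCA (1.79% of windows). The C/EBP-ATF response element, searched as TGATGNAA on both strands, was at 1 place in the *Trib3* window, at chr2:152344039-152344046, which is just past the RefSeq start but upstream of the GENCODE start given above, and in 3.97% of all windows. Neither window held TGACGTCA, the AP-1 site TGANTCA (7.81% of windows) or the EGR site GCGNGGGCG (5.55% of windows). Of the 300 bases of the *Trib2* window, only the printed 73 lie upstream of all its annotated starts. The 2 windows therefore do not compare like stretches, and sequence further upstream of *Trib2* was not searched. These matches are letters in a sequence and no binding was measured.

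Training was visible in the libraries through the immediate early genes. *Arc* was at 85.4 to 97.0 CPM (the usual unit of counts scaled to library depth, here with upper-quartile factors) in HC and at 218 to 266 CPM in SOR libraries (log2 fold change 1.42, edgeR adjusted p = 8.27e-06). *Fos* and *Egr1* also rose, with log2 fold changes of 1.89 (adjusted p = 0.00477) and 1.09 (adjusted p = 0.0212), although the call for *Egr1* was lost in 6 of 8 fits without 1 library. Total estimated counts per library were 51406011 to 81525977. The summed markers of neurons (3011 to 3576 CPM), dentate granule cells (198 to 257 CPM) and CA1 pyramidal cells (230.3 to 266 CPM) were detected in every library. Summed oligodendrocyte markers were at 5021 to 5480 CPM in HC and 4109 to 5381 CPM in SOR libraries, with all 6 markers lower in SOR and none past the adjusted threshold. Summed choroid plexus markers ranged from 24.3 to 1079 CPM in HC and from 40.2 to 3951 CPM in SOR, and summed red blood cell markers from 98.6 to 127 and from 115 to 184 CPM. In bulk tissue, fewer cells of a type and less RNA per cell cannot be told apart.

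*Trib2* was the predominant Tribbles transcript of the dorsal hippocampus. Per kilobase of exon, *Trib2* was at 9.45 ± 0.147 CPM in HC mice (SD, n = 4), *Trib1* at 0.690 ± 0.0540 and *Trib3* at 0.105 ± 0.0102. *Trib2* thus made up 92.2% of the summed level of the family in HC libraries, *Trib1* 6.73% and *Trib3* 1.02%. The order was the same in SOR mice, at 10.6 ± 0.562 CPM per kilobase for *Trib2*, 0.980 ± 0.139 for *Trib1* and 0.0904 ± 0.0138 for *Trib3*, and no library of one gene came within the range of another. The length is that of all annotated exons, so a short isoform would be understated on this scale.

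*Trib1* was higher in every trained mouse than in any homecage mouse. HC replicates 1 to 4 had 4.03, 4.62, 4.59 and 4.004 CPM, and SOR replicates 1 to 4 had 5.45, 5.30, 6.85 and 6.89 CPM. The groups did not overlap, and SOR replicates 3 and 4 stood highest. The means were 4.31 ± 0.338 and 6.12 ± 0.868 CPM (SD over 4 mice each), which is 0.51 ± 0.121 (SE) as a log2 fold change, with a 95% confidence interval of 0.24 to 0.77. That is a fold change of 1.42, at the 1.4-fold threshold. The adjusted p was 0.161 in edgeR's quasi-likelihood test, where *Trib1* ranked 239 by p among the genes tested, so it was not called. Permuting log2 CPM over the groups gave an exact two-sided p of 0.0286, the smallest that 4 against 4 allows.

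*Trib2*, the more abundant gene, showed a smaller and tighter difference. Its level was 41.1, 41.8, 40.6 and 40.4 CPM in the HC mice and 44.1, 43.9, 48.9 and 47.2 CPM in the SOR mice. Again the groups did not overlap, and SOR replicates 3 and 4 were the highest. The means of 41.0 ± 0.636 and 46.0 ± 2.44 CPM gave 0.17 ± 0.0474 (SE) on the log2 scale (95% confidence interval 0.06 to 0.27), or 1.12-fold, with an edgeR adjusted p of 0.242. The upper limit of that interval, 1.21-fold, is under the 1.4-fold threshold. The exact permutation p was 0.0286, the smallest possible.

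*Trib3* was scarce and did not separate the groups. Estimated counts were 11.4, 16.0, 12.2 and 19.7 in HC and 11.6, 9.72, 14.9 and 9.92 in SOR libraries. In CPM the HC mice were at 0.200, 0.225, 0.214 and 0.251 and the SOR mice at 0.161, 0.180, 0.230 and 0.196. SOR replicate 3 lay inside the HC range and the other SOR libraries below its lower end. The log2 fold change was -0.22 ± 0.274 (SE, 95% confidence interval -0.83 to 0.39, edgeR adjusted p = 0.845), which allows anything from 0.564-fold to 1.31-fold, and the exact permutation p was 0.171. The summed counts of 59.2 in HC (95% Poisson interval 45.1 to 76.4) and 46.1 in SOR (33.8 to 61.5) show how little was counted, and these intervals cover counting error only. A change of *Trib3* within that interval cannot be told from none in these libraries.

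**Figure D1:**
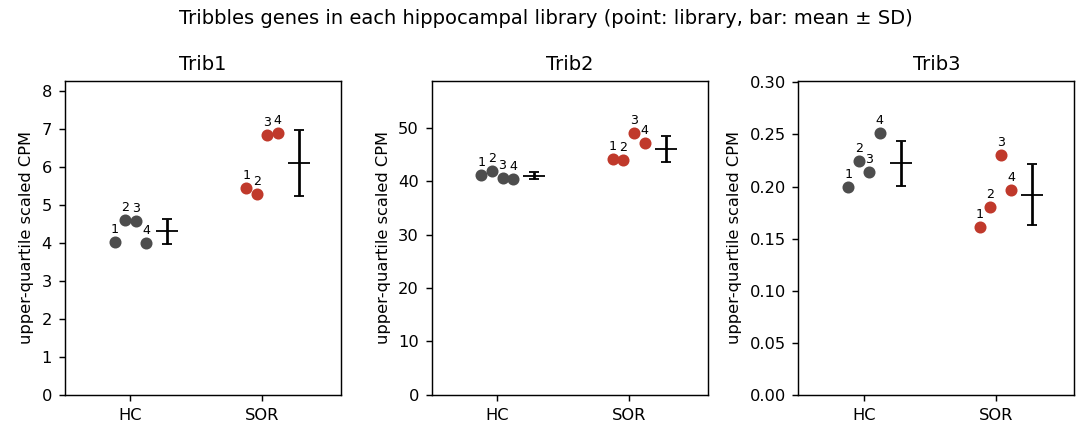
Level of *Trib1*, *Trib2* and *Trib3* in upper-quartile scaled CPM (y axis, from 0, with its own scale for each gene) in homecage (HC) and trained (SOR) mice. Each point is a library with its replicate number and each bar the mean ± SD of 4. All SOR points lie above all HC points for *Trib1* and *Trib2*, while those of *Trib3* overlap.

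A gene was called when its fold change exceeded 1.4 and its adjusted p was under 0.05, and none of the 3 Tribbles genes met both. Of the 22018 tested genes 0.173% did, 0.15% (33 genes) as higher and 0.0227% (5 genes) as lower in SOR. At an unadjusted p under 0.05, *Trib1* and *Trib2* were among the 4.54% of genes that were higher in SOR. Full separation with all SOR libraries on top was seen for 2.98% of the tested genes, *Trib1* and *Trib2* among them. Across all tested genes the plot of fold change against level places *Trib1* just above the fold-change threshold and *Trib2* well under it. By edgeR p, *Trib1* ranked 239, while 38 genes were called.

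**Figure D2:**
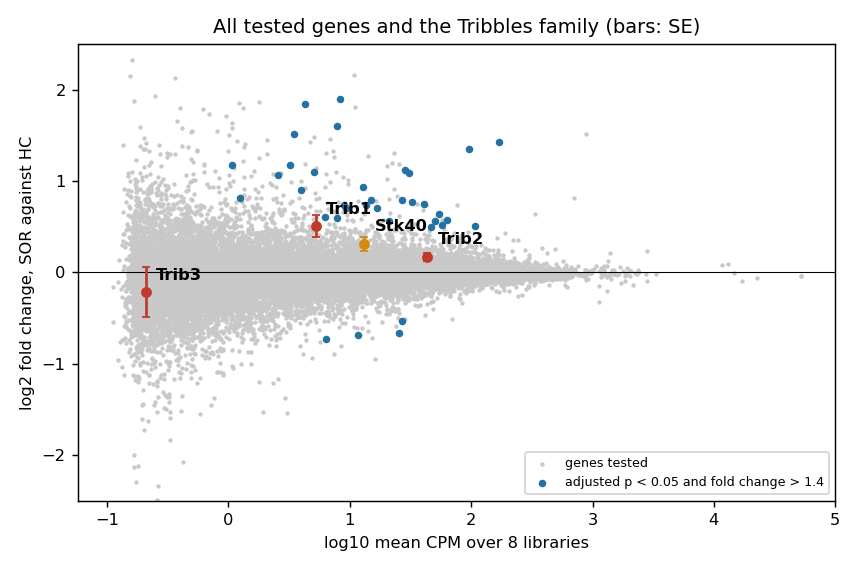
Log2 fold change of SOR against HC (y axis) by mean level (x axis, log10 CPM over 8 libraries) for the tested genes; 5 genes lie beyond ±2.5. *Trib1* (0.51), *Trib2* (0.17) and *Trib3* (-0.22) are in red and *Stk40* (0.31) in orange, with standard errors, and the called genes are in blue.

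The call for *Trib1* depended on the test, while its size did not. Its log2 fold change lay between 0.49 and 0.53 in all 16 alternative fits to the 8 libraries, and it was called in 4 of them. DESeq2 gave 0.53 with an adjusted p of 0.00394 and called 0.509% of genes. When 1, 2 or 3 RUVs factors of unwanted variation entered the likelihood ratio test, each fit gave 0.52, with adjusted p of 0.0142, 0.00654 and 0.0128, and called 0.595, 0.867 and 0.922% of genes. With the same factors the quasi-likelihood test gave adjusted p of 0.0957, 0.0733 and 0.109 and called 0.191, 0.245 and 0.232% of genes, and the likelihood ratio test without factors gave 0.0757. *Trib2* reached an adjusted p under 0.05 in 1 of 16 fits, DESeq2 (log2 fold change 0.19, adjusted p = 0.0235), and was never called. *Trib3* stayed negative and uncalled in all 16.

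**Figure D3:**
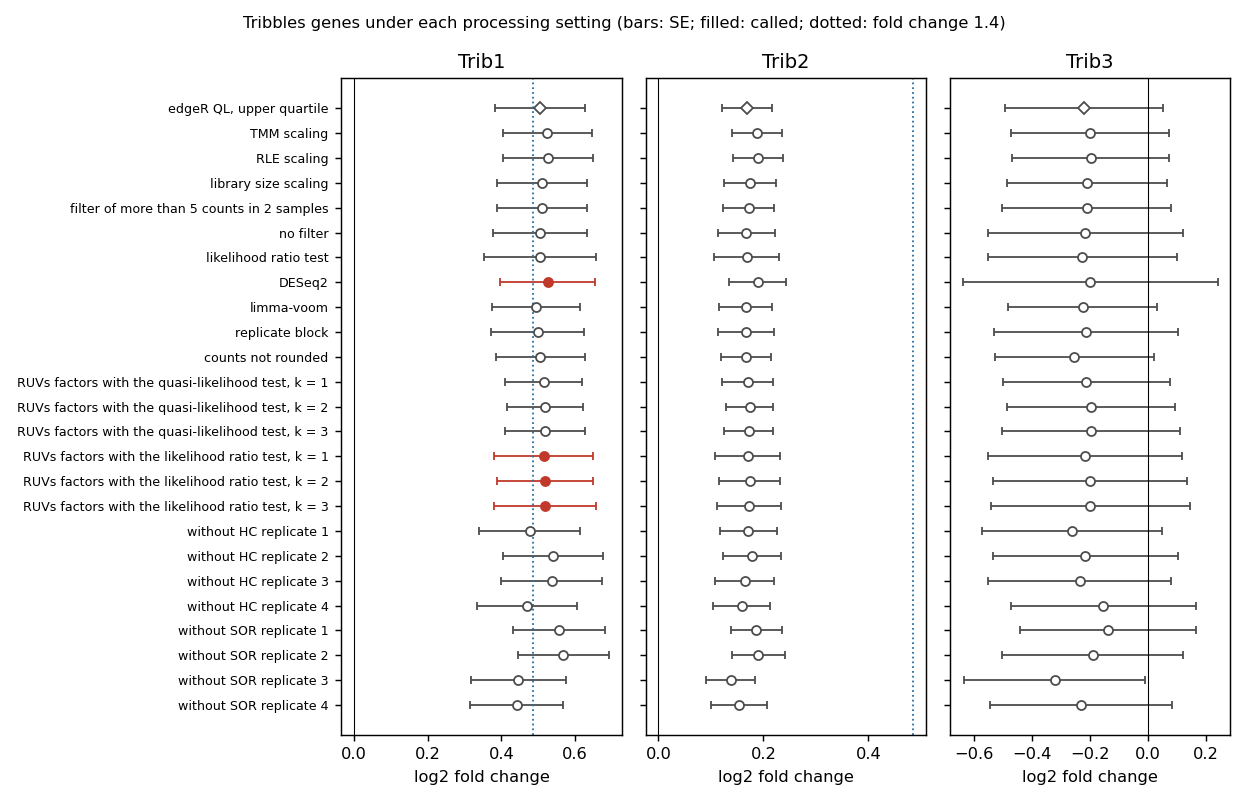
Log2 fold change of SOR against HC (x axis) with standard errors for each Tribbles gene under each processing setting (rows), including the 8 fits that left out 1 library. Filled red points were called and the dotted line is a fold change of 1.4: *Trib1* stays between 0.44 and 0.57 and is filled in 4 rows.

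The 3 genes were also set against each other, since the ratio of 2 genes within a library does not depend on the scaling between libraries. *Trib1* counts were 0.0981 to 0.113 of *Trib2* counts in HC libraries and 0.121 to 0.146 in SOR libraries, so the ratio of every trained mouse was above that of every homecage mouse. On the log2 scale the ratio was higher by 0.33 in SOR (-3.25 ± 0.103 in HC and -2.92 ± 0.134 in SOR, SD, n = 4; exact two-sided permutation p = 0.0286). Of the other tested genes, 0.55% had a ratio to *Trib2* that separated the groups in this way.

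The ratio of *Trib1* to *Trib3* was 16.2 to 21.1 in HC and 29.9 to 35.3 in SOR libraries, a log2 difference of 0.76 (exact permutation p = 0.0286). That of *Trib2* to *Trib3* was 163 to 199 in HC and 213 to 283 in SOR libraries, a log2 difference of 0.42 (exact permutation p = 0.0286). Neither ratio overlapped between the groups, and 6.42% of the tested genes separated from *Trib3* in the same direction. The 3 ratios share genes and are not independent; each p is the smallest the design allows and stays at 0.0286 after Benjamini-Hochberg adjustment over the 3. Both ratios to *Trib3* rest on its 9.72 to 19.7 estimated counts per library. The coefficient of variation of *Trib3* between mice was 9.72% in HC and 15.2% in SOR, below the 26.0% and 29.4% that counting error alone would give at these counts.

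**Figure D4:**
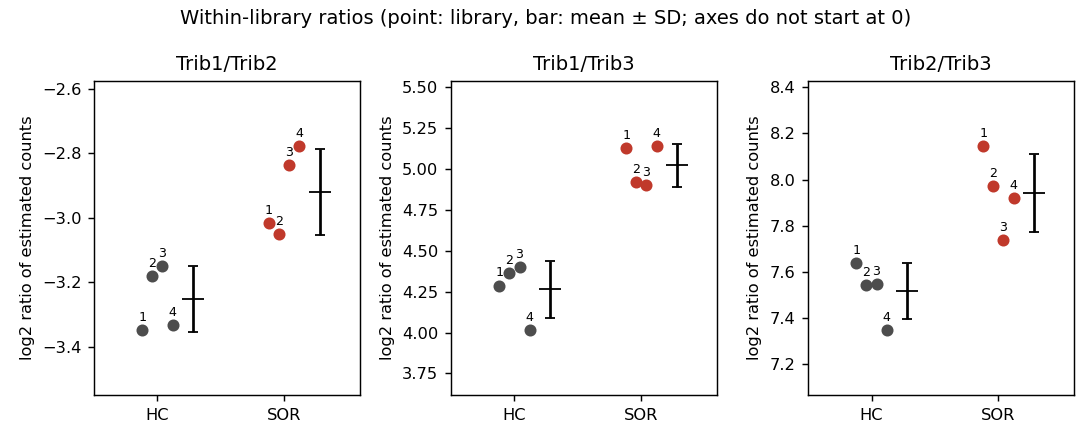
Log2 ratio of estimated counts (y axis, not from 0) between pairs of Tribbles genes within each library, for HC and SOR mice. Points are libraries with replicate numbers and bars the mean ± SD of 4; the SOR points lie above the HC points in each of the 3 panels.

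The covariation of the 3 genes from mouse to mouse was tested within groups, and no pair passed the adjusted threshold with upper-quartile scaling. For *Trib1* and *Trib2*, after removal of each group's mean of log2 CPM, Pearson's r over the 8 libraries was 0.868 (exact permutation p within groups = 0.0781) and Spearman's rho 0.952 (exact permutation p = 0.0486). Over the 3 pairs tested, the adjusted values were 0.201 and 0.146, and r was 0.823 without SOR replicates 2 and 4, the libraries farthest from the median of *Trib1*. *Trib1* and *Trib3* had r = 0.562 and rho = 0.619 (exact permutation p = 0.267 for each, adjusted 0.267, r = 0.585 without the same libraries). *Trib2* and *Trib3* had r = 0.695 (exact permutation p = 0.134, adjusted 0.201) and rho = 0.619 (exact permutation p = 0.267, adjusted 0.267), with r = 0.448 without SOR replicates 2 and 3. The libraries share depth and tissue composition, and *Trib2* ranked 78 for this r with *Trib1* among 16351 genes whose mean reached 1 CPM.

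Over all 8 libraries without centring, the genes most like *Trib1* were *Vgf* (r = 0.980), which encodes a neuropeptide precursor, *Zbtb16* (r = 0.972), a zinc finger transcription factor, and *Trib2* (r = 0.968). Those most like *Trib2* were *Vgf* (r = 0.968), *Trib1* (r = 0.968) and *Fam43a* (r = 0.963). *Vgf* was at 23.7 to 25.9 CPM in HC and 27.2 to 33.4 CPM in SOR libraries, with SOR replicates 3 and 4 highest, as for *Trib1* and *Trib2*. *Trib3* was most like *Frmpd3* (r = 0.974), *Gm13716* (r = 0.969) and *Col15a1* (r = 0.958), which, like *Trib3*, were highest within their groups in HC replicate 4 and SOR replicate 3. These are the top 3 of 16351 or 16352 genes over 8 points, given as a description, and the group difference enters the likeness. *Trib3* had 9.72 to 19.7 estimated counts per library, so its pattern over libraries cannot be told from counting error. Likeness used log2 of CPM plus 0.5, an offset above the level of *Trib3* in every library.

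Among relatives, *Stk40* encodes another pseudokinase close to the Tribbles family that also binds COP1. It had 11.8, 12.04, 11.8 and 11.03 CPM in HC and 13.9, 14.0, 16.2 and 13.8 CPM in SOR libraries. All SOR libraries were above all HC libraries, as for 2.98% of all tested genes. The log2 fold change was 0.31 ± 0.0767 (SE, edgeR adjusted p = 0.171), so *Stk40* was not called.

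The ubiquitin ligase partners of the family were counted as a list of 8 genes. Of these, 0 were called, against 0.173% of all tested genes, so the count says little about the list. *Cop1*, the ligase that Tribbles proteins recruit, was at 65.9 to 74.2 CPM in HC and 76.2 to 78.5 CPM in SOR libraries. These groups did not overlap, as for the 2.98% of all tested genes with all SOR libraries on top. The log2 fold change of *Cop1* was 0.15 ± 0.0446 (SE, edgeR adjusted p = 0.279). *Btrc*, an F-box ligase subunit, was at 76.9 to 81.3 CPM in HC and 81.5 to 83.1 CPM in SOR libraries. It too was without overlap, at a log2 fold change of only 0.05. *Smurf1*, a HECT ligase, had a log2 fold change of 0.11 with overlapping groups. The list had 6 positive and 2 negative log2 fold changes with a median of 0.07, against a median of -0.02 over all tested genes. At the protein level the pairing of adaptor and ligase was not measured.

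From the C/EBP and FoxO families, which include transcription factors that Tribbles proteins act on, 8 genes were counted. Of these, 0 were called, against 0.173% of all tested genes. The proteins of these genes were not measured. *Foxo3*, a FoxO factor restrained by TRIB2, was at 51.3 to 55.3 CPM in HC and 55.6 to 66.7 CPM in SOR libraries. Its log2 fold change was 0.21 ± 0.0561 (SE, edgeR adjusted p = 0.213). The groups did not overlap, as for the 2.98% of all tested genes with all SOR libraries on top. *Cebpa*, which encodes the degraded C/EBPα, had a log2 fold change of 0.16 with overlapping groups, and *Cebpg* one of 0.09. The list had 5 positive and 3 negative values with a median of 0.08, against -0.02 over all tested genes.

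Of 6 AKT and MAP2K kinases, 0 were called, and 5 had a negative log2 fold change, with a median of -0.03, close to the median of -0.02 over all tested genes, of which 43.8% had a positive value and 0.173% were called. *Akt1* had the lowest p, with 107 ± 4.02 CPM in HC and 100.1 ± 4.17 CPM in SOR mice (SD, n = 4; log2 fold change -0.10, edgeR adjusted p = 0.499). *Map2k7* and *Map2k1* had log2 fold changes of -0.07 and -0.04.

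The ATF4 branch of the stress response, through which *Trib3* is known to be induced, was counted as 21 genes of sensors, factors and targets. *Atf3*, a stress and activity-regulated transcription factor, was the 1 gene called of the 21, against 0.173% of all tested genes. It rose from 0.563, 0.744, 0.678 and 0.628 CPM in HC to 1.398, 1.42, 1.47 and 1.61 CPM in SOR libraries (log2 fold change 1.17 ± 0.153 SE, edgeR adjusted p = 0.00971); its adjusted p was 0.0754 with the replicate block and 0.0607 without HC replicate 4. *Ddit4*, an inhibitor of mTORC1, was at 15.0 to 18.1 CPM in HC and 19.1 to 27.9 CPM in SOR (log2 fold change 0.42, edgeR adjusted p = 0.213). *Atf4* itself was at 97.0 to 105.8 CPM in HC and 106.4 to 131 CPM in SOR (log2 fold change 0.21, edgeR adjusted p = 0.255). Both were without overlap, as were the 2.98% of all tested genes with all SOR libraries on top. In this list 17 log2 fold changes were positive and 4 negative, with a median of 0.14 against -0.02 over all tested genes. At an unadjusted edgeR p under 0.05, 7 of the 21 were higher, against 4.54% of all tested genes. These 7 were *Atf3*, *Atf4*, *Ddit3*, *Ddit4*, *Eif2ak3*, *Slc7a5* and *Stc2*. The list was chosen with earlier results of these data known, so this share is a description and not a test. The other genes of the list went both ways. *Asns*, *Phgdh* and *Mthfd2* were flat, at 0.02, 0.01 and 0.02. *Chac1*, *Psat1*, *Slc7a11* and *Eif2ak2* were lower, at -0.09, -0.08, -0.05 and -0.13. *Ppp1r15a* had 0.63, with 32.4 CPM in SOR replicate 3 and 10.3 to 10.9 CPM in the other SOR libraries. *Atf5*, *Sesn2* and *Nupr1* had 0.20, 0.15 and 0.14. Whether the branch was active was not tested. *Trib3*, a target of this branch, had the log2 fold change of -0.22 given above.

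**Figure D5:**
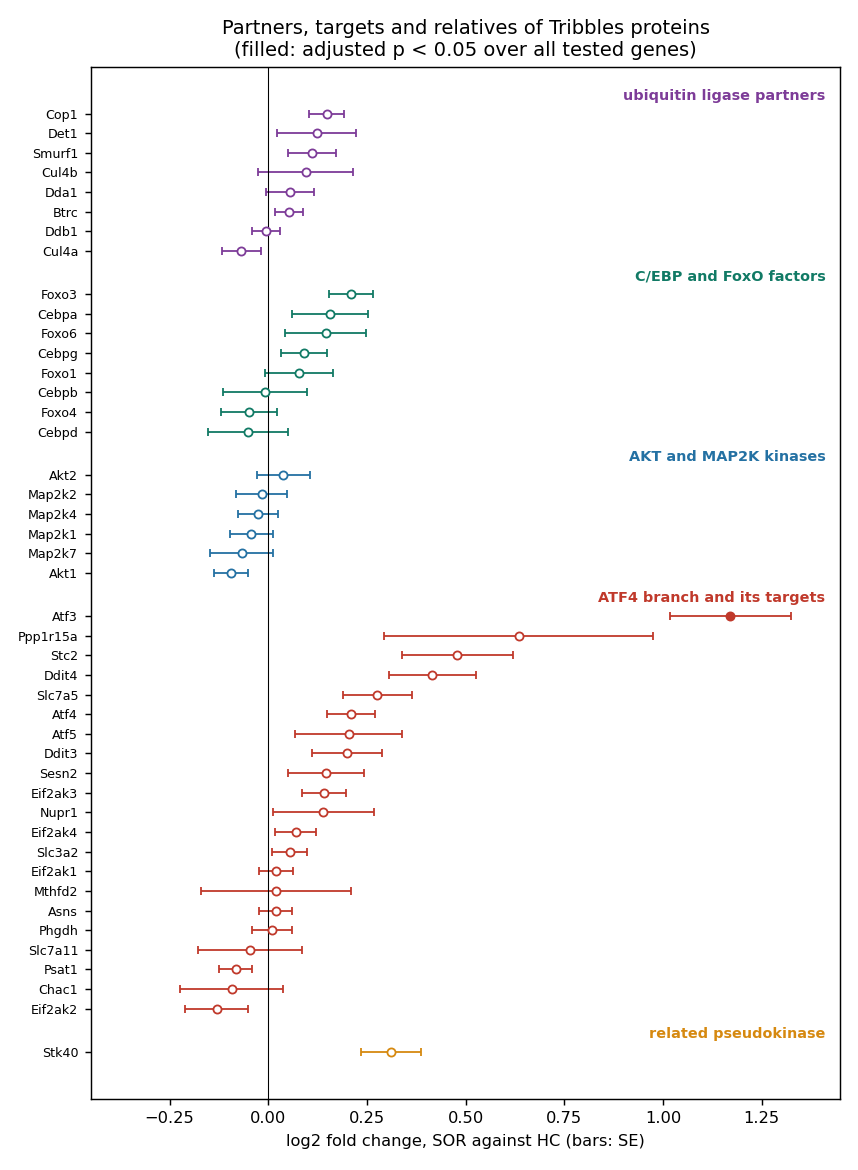
Log2 fold change of SOR against HC (x axis) with standard errors for the 44 partner, target and relative genes (rows), grouped by list. The filled point, *Atf3* at 1.17, is the gene with an adjusted p under 0.05 over all tested genes.

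Over the 44 genes of these lists, 30 had a positive and 14 a negative log2 fold change, with a median of 0.06, and 43.8% of all tested genes had a positive one. With TMM scaling, with library sizes and with the likelihood ratio test, 1 gene of the 44 was called as well. The share of all tested genes called was 0.173% with upper-quartile factors and the quasi-likelihood test. The nearest tested protein-coding neighbours did not pass the test. *Nsmce2* and *Fam84b*, 46666 and 1161895 bases from *Trib1*, had log2 fold changes of -0.10 and -0.11, against 0.51 for *Trib1*. *Lpin1* and *Fam84a*, 718747 and 1639673 bases from *Trib2*, had 0.08 and 0.11. *Rbck1* and *Nrsn2*, which lie 4769 and 24723 bases from *Trib3*, had 0.01 and -0.13, the first with a sign that changed without HC replicate 4 or SOR replicate 2, and the adjusted p of the 6 neighbours lay between 0.551 and 0.953 in edgeR's quasi-likelihood test.

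The marker lists that differ between libraries were set beside the members. SOR replicates 3 and 4, the highest for *Trib1* and *Trib2*, had 4109 and 5381 CPM of summed oligodendrocyte markers, the lowest and the highest value among the SOR libraries. They had 784 and 40.2 CPM of summed choroid plexus markers, against 3951 and 871 CPM in SOR replicates 1 and 2. In HC, replicates 2 and 3 had 24.3 and 64.1 CPM of these markers, against 1079 and 871 CPM in replicates 1 and 4. *Trib1* was at 4.62 and 4.59 CPM in HC replicates 2 and 3, and at 4.03 and 4.004 CPM in replicates 1 and 4. *Trib2* did not split the HC libraries this way, with replicate 3 below replicate 1. Without SOR replicate 3 the log2 fold change was 0.45 for *Trib1* and 0.14 for *Trib2*, and without SOR replicate 1 it was 0.56 and 0.19. The part of cell composition in these differences was not tested.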

How the data were processed

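Dorsal hippocampal RNA of 8 mice was sequenced as paired reads. The methods name a stranded total RNA kit with ribosomal depletion, whereas the sample labels name polyA RNA. The authors deposited estimated counts per gene (expected counts summarized with tximport, not normalized, 1 column per mouse; mm10), made in bcbio-nextgen, for which the methods name STAR and featureCounts. featureCounts assigns whole reads by default, while the table holds fractions and is a tximport summary, so the tool behind these values is unclear; strand use in counting is not given in the sources used here. Of the deposited values, 52.6% were not whole. Counts were rounded, filtered with filterByExpr, scaled by upper-quartile factors and tested in edgeR 4.0.16 (quasi-likelihood F test, R 4.3.3) with p adjusted by the Benjamini-Hochberg method across the 22018 genes that remained; the fit was tested on simulated data. The methods add RUVs factors without giving their number, so these were alternatives, as were DESeq2 1.42.0 and limma-voom (limma 3.58.1). Exact permutation tests used the 70 assignments of 4 against 4. Replicates differed beyond counting noise (chi-square per degree of freedom 12.0 to 53.8). Gene positions are from GENCODE M21.

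Named genes are the members, *Stk40*, *Arc*, *Fos* and *Egr1*, pathway genes past the threshold, the 3 lowest p of each list, nearest neighbours and the 3 genes most like each member. Further genes of the ATF4 list are named in the text without being counted among these. The members and lists were chosen with earlier results of these data known. 1 item of a list is not reported here. Marker lists of neurons, dentate granule cells, CA1 pyramidal cells, inhibitory neurons, astrocytes, microglia, endothelial cells and thalamus had overlapping sums between the groups.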

Additional observations from a re-analysis of the deposited data

Results flagged for a closer look

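In 68 groups of 4 values, the 31 named genes and the 3 ratios in HC and SOR, 4 single libraries stood apart from the other members of their group by Dixon's criterion at the 95% level, which chance passes in about 1 in 20 groups. *Stk40* was at 16.2 CPM in SOR replicate 3, with the other SOR libraries at 13.8 to 14.0 CPM. *Fam84b*, the nearest tested protein-coding gene on one side of *Trib1*, was at 19.5 CPM in HC replicate 1, with the others at 22.5 to 22.7 CPM. *Gm13716*, whose pattern was like that of *Trib3*, was at 3.24 CPM in HC replicate 4, with the others at 2.56 to 2.65 CPM. *Map2k1*, a MEK kinase gene, was at 212 CPM in SOR replicate 4, with the others at 183 to 187 CPM. No library stood apart by this criterion for *Trib1*, *Trib2*, *Trib3* or their ratios.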

How the results depend on the processing

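*Trib1*, *Trib2* and *Trib3* kept their direction in all 16 alternative fits and all 8 fits without 1 library. Leaving out 1 library at a time gave log2 fold changes of 0.44 to 0.57 for *Trib1* (adjusted p 0.158 to 0.395), 0.14 to 0.19 for *Trib2* and -0.32 to -0.14 for *Trib3*. *Trib1* was called with DESeq2 (0.53) and with RUVs factors and the likelihood ratio test (0.52 for 1, 2 and 3 factors). The 38 genes called became 105 with the likelihood ratio test, 112 with DESeq2, 131, 191 and 203 with 1, 2 and 3 RUVs factors and the likelihood ratio test, 68 without a fold-change threshold and 22 to 38 without 1 library (lowest without HC replicates 2 and 4, at 22 and 25). The cause was not tested.

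Same-numbered deviations correlated at -0.10 to 0.15, within the -0.31 to 0.23 of libraries with other numbers. This shows no pairing of mice by replicate number, but so few libraries cannot exclude one. With the replicate block, *Trib1* had 0.50 (adjusted p = 0.313), 30 genes were called, and the log2 ratios kept their values of 0.33, 0.76 and 0.42, with an exact sign-flip p of 0.125, the smallest that 4 numbers allow. Leaving out 1 library gave 0.29 to 0.38, 0.67 to 0.80 and 0.36 to 0.49 for these ratios. With library sizes as scaling, the *Trib1* to *Trib2* correlation was 0.889 (adjusted p = 0.0156). *Rbck1* lay between -0.0034 and 0.036 without 1 library and changed sign without HC replicate 4 and SOR replicate 2 (-0.00073). *Egr1* lost its call with the block (adjusted p = 0.0591) and in 6 of 8 fits without 1 library. Low counts limit *Trib3*, whose adjusted p DESeq2 did not give.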
